A study of Homo sapiens with 6 samples.

Results

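RNA of A375 cells was profiled for 46 genes of DNA repair and the DNA damage checkpoint, chosen by name and found by symbol in a table of 29790 genes. A375 is an established human melanoma cell line, and no other line enters the comparison. The compared groups were cells exposed for 24 h to 3 µM fluvastatin (3 libraries) and untreated cells grown beside them (3 control libraries), numbered 0, 1 and 2 in each group. Fluvastatin is a statin, an inhibitor of the enzyme that makes mevalonate, which cells turn into cholesterol and isoprenoids. Libraries are given below in the order 0, 1, 2, and whether they came from separate cultures is not stated in the labels; p-values therefore speak of the variation among these 6 libraries, part of which may be technical. Values were taken as FPKM, fragments scaled by transcript length and by the number of mapped fragments.

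Cells mend DNA by routes that fit the kind of damage. Homologous recombination copies an intact sister chromatid and works in S and G2 phase, the Fanconi anaemia proteins clear crosslinks at stalled forks, mismatch repair corrects copying errors, end joining rejoins broken ends in any phase, and excision routes replace damaged bases or bulky lesions. The kinases ATM and ATR sense breaks and stalled forks and halt the cell cycle through CHEK2 and CHEK1. Many recombination and fork genes are known to be transcribed mainly in proliferating cells, whereas excision and end-joining genes are known to be less tied to the cell cycle.

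As for the libraries, the 6 sums of FPKM lay between 686133.2 and 729564.0, and no pair of libraries shared more than 2 identical values above 0. Libraries of the same group correlated at a Pearson's r of 0.979 to 0.985 on the log2(FPKM + 1) scale, and libraries of different groups at 0.971 to 0.976, computed over genes, which are not replicates. Steps between low values gave relative depths of 1.27, 1.51 and 1.405 for the fluvastatin libraries and 1, 1.18 and 0.966 for the controls, so each fluvastatin library was deeper than each control and depth and drug cannot be told apart. Of 11 melanocyte lineage markers, SOX10, MITF, MCAM and CSPG4 were at 1 FPKM or more in every library, PMEL, DCT, TYRP1, S100B and S100A1 averaged under 1 FPKM in both groups, and MLANA and TYR were not analysed here. SOX10 averaged 71.98 FPKM in fluvastatin libraries and 23.3 FPKM in controls, and CSPG4 59.99 FPKM in fluvastatin libraries and 24.4 FPKM in controls. The 9 measured markers summed to 225 to 245 FPKM in fluvastatin libraries and 148 to 174 FPKM in controls. Keratinocyte markers, mostly KRT10, summed to 69.97 to 71.3 FPKM in fluvastatin libraries and 38.4 to 63.9 FPKM in controls, KRT14 averaged 4.99 FPKM in fluvastatin libraries and 0.691 FPKM in controls, and fibroblast markers, mostly PDGFRB, summed to 5.53 to 6.48 FPKM in fluvastatin libraries and 7.14 to 11.6 FPKM in controls; their part in the results below was not tested. Summed endothelial markers stayed at or under 0.188 FPKM in fluvastatin libraries and 0.110 FPKM in controls.

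Most of the 46 genes had lower FPKM in the fluvastatin libraries than in the controls. Tested with limma on log2(FPKM + 1) over all 14344 genes at 1 FPKM or more in at least 3 libraries, 27 of the 46 fell and 0 rose at a Benjamini-Hochberg adjusted p below 0.05, where 13.6% of all genes tested fell and 14.1% rose. All 46 passed the filter on low values. Without the adjustment, 32 were lower and 0 higher at p below 0.05. For such unadjusted counts, here and below, the share of all genes tested is not given. The median log2 fold change of the 46 was -0.47, against -0.01 for all genes tested, and the range ran from -1.26 for XRCC3 to 0.24 for XPA. In 31 of the 46 all 3 fluvastatin libraries lay below all 3 controls, where 22.9% of all genes tested did so, and in 0 they lay above all controls, where 21.9% did. XRCC3, CHEK2 and XRCC2 alone were at least 2-fold lower by group means. Summed over the 46 genes, the level was 1583 ± 91.4 FPKM in fluvastatin libraries and 2171 ± 46.6 FPKM in controls (SD, n = 3 each).

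**Figure D1:**
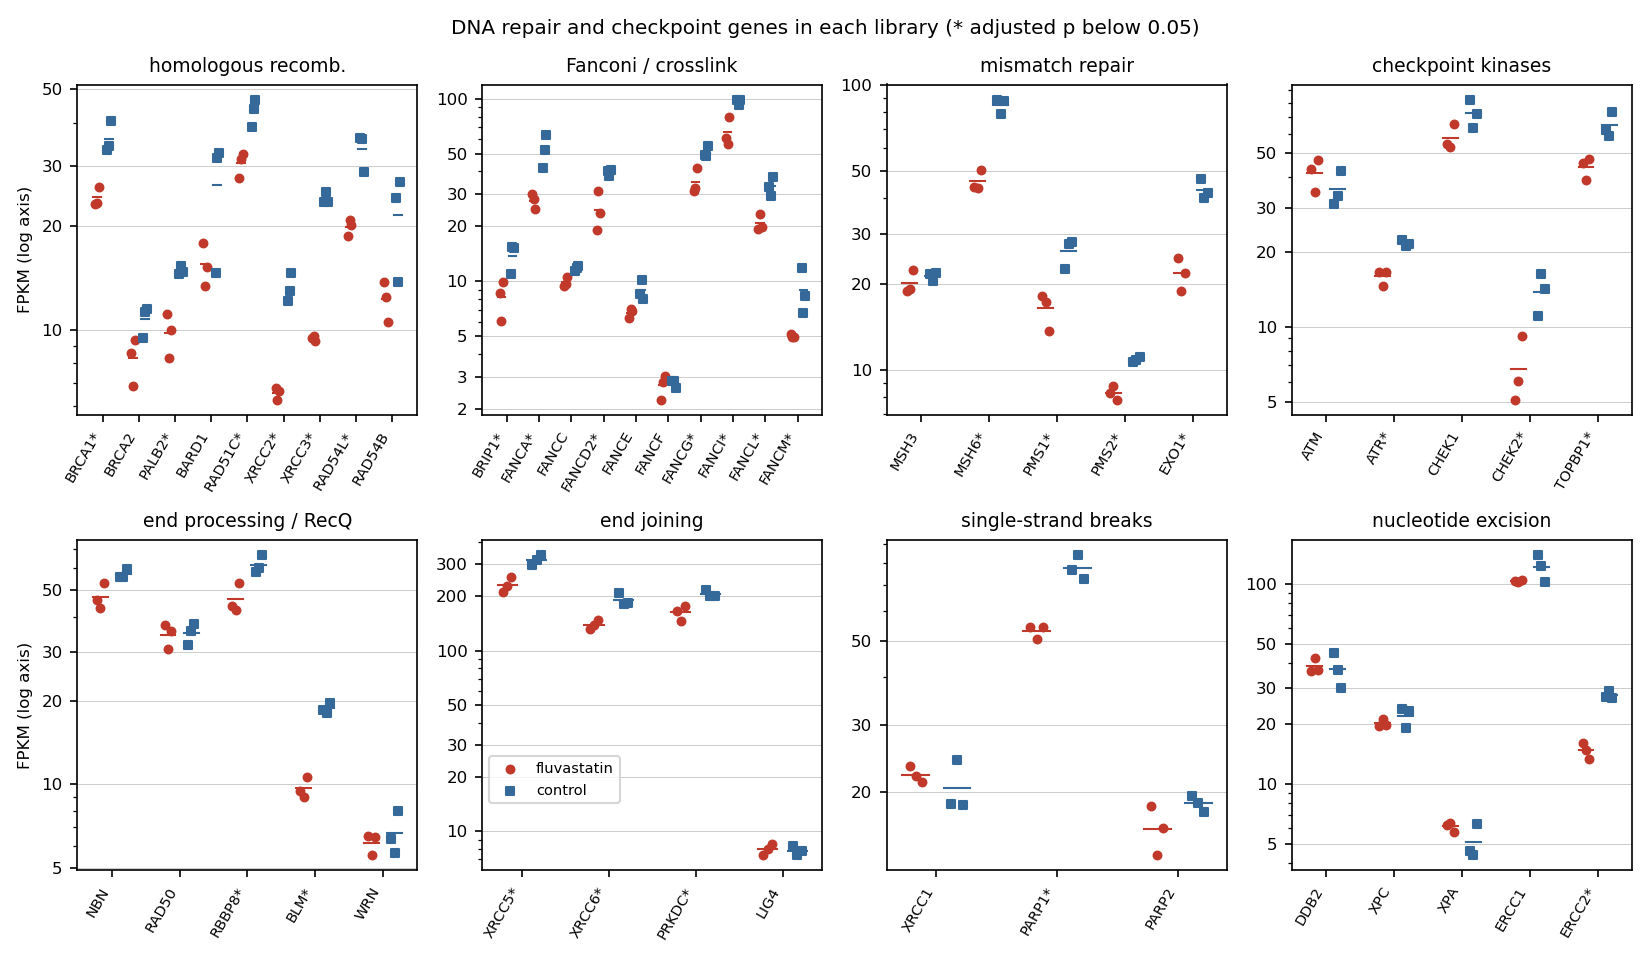
FPKM of each of the 46 genes on log axes, 1 panel per repair route, with red circles for the 3 fluvastatin libraries, blue squares for the 3 controls, short lines at group means and stars on genes that fell at an adjusted p below 0.05. Red and blue separate in most genes of recombination, crosslink and mismatch repair, and in nucleotide excision repair ERCC2 alone has all 3 red points below the blue ones.

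The fall was uneven across routes. The median log2 fold change was -0.65 for 9 recombination genes, -0.64 for 5 mismatch repair genes and -0.60 for 10 Fanconi and crosslink genes. It was -0.42 for 5 checkpoint genes, -0.40 for 4 end-joining genes and -0.27 for 5 genes of end processing and RecQ helicases. The smallest were -0.22 for 3 genes of single-strand break repair and -0.11 for 5 of nucleotide excision repair. These medians are descriptions, and the differences between routes were not tested.

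The call of a fall did not hold under every setting. With estimated relative depth added to the model, 0 of the 46 passed, where limma called 61 genes in all, 12 of them lower. In that fit 12 of the 46 were lower at an unadjusted p below 0.05, 0 were higher, and the median of the 46 was -0.38. Leaving out fluvastatin replicate 0 or 1 or control replicate 1 left 14, 16 and 17 of the 46 that fell, against 7.95%, 9.08% and 8.75% of all genes tested in those fits. Of the 27 genes, 13 stayed past the threshold whichever library was left out: BRCA1, PALB2, XRCC2, XRCC3, RAD54L, FANCA, FANCL, MSH6, EXO1, ATR, BLM, PARP1 and ERCC2. How many of all genes tested did so is not given here.

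**Figure D2:**
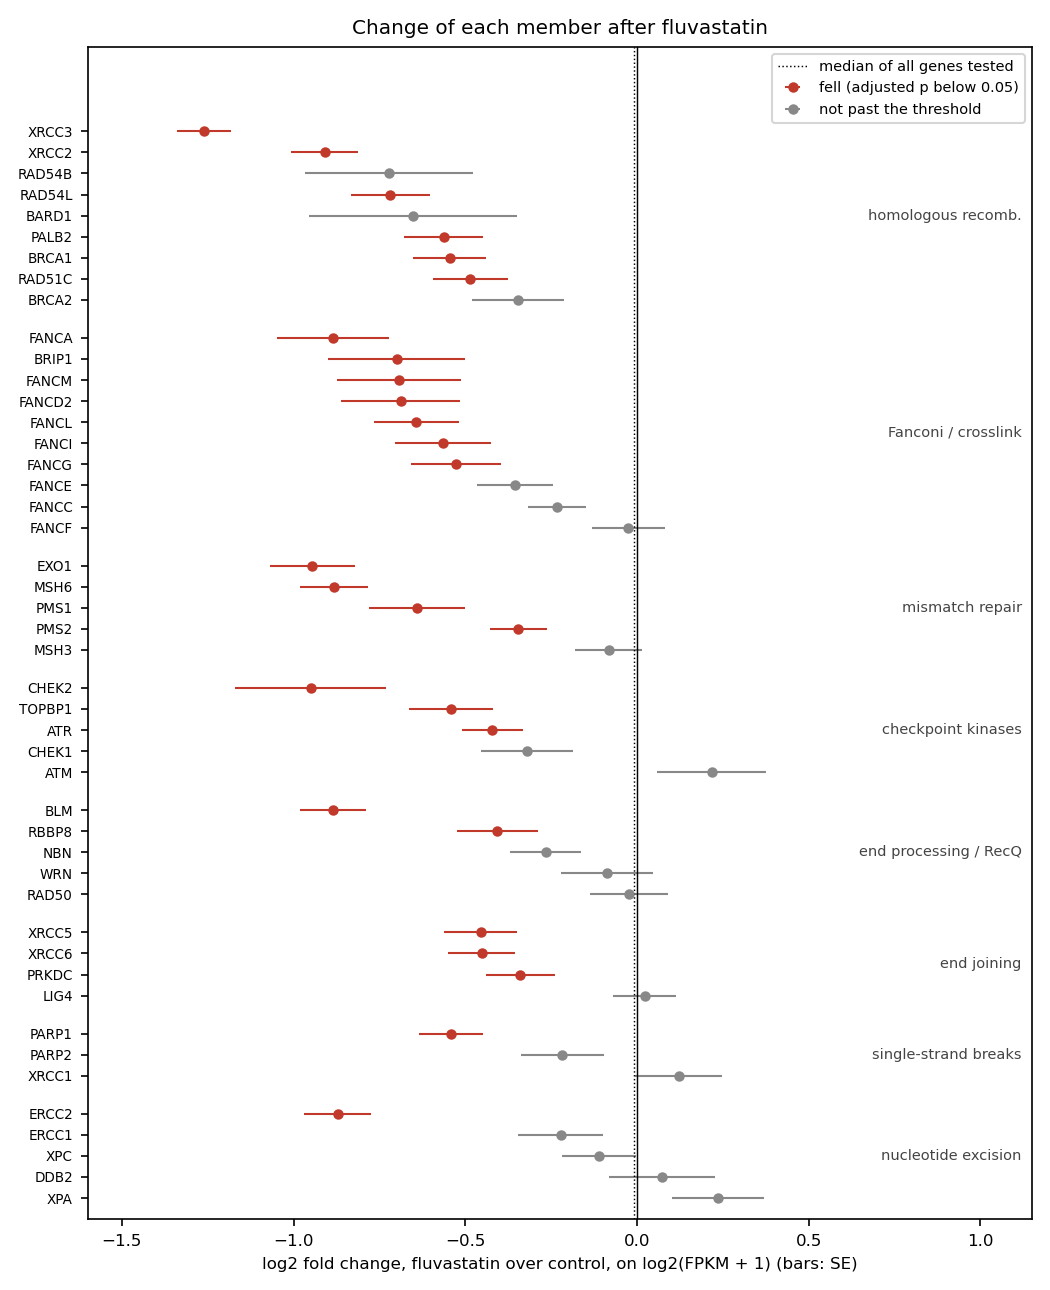
Log2 fold change of each of the 46 genes, fluvastatin over control, on the log2(FPKM + 1) scale with its SE, grouped by repair route and sorted within each, with falls at an adjusted p below 0.05 in red, other genes in grey and a dotted line at the median of all genes tested. Points lie to the left of 0 for 41 of the 46 genes, XRCC3 farthest, and ATM and XPA lie farthest to the right.

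Genes of DNA synthesis and mitosis were lower in the same libraries. Of 28 S-phase genes, 25 fell and 0 rose (median log2 fold change -0.82), where 13.6% of all genes tested fell, and all 28 had every fluvastatin library below every control, where 22.9% did. Their summed level was 1210 to 1286 FPKM in fluvastatin libraries and 2233 to 2235 FPKM in controls. Of 25 mitotic genes, 21 fell and 0 rose, all 25 with negative values (median -0.61), and their summed level was 1520 to 1781 FPKM in fluvastatin libraries and 2386 to 2588 FPKM in controls. With relative depth in the model, limma called 0 of the 28 and 0 of the 25, of which 19 and 14 were lower and 0 higher at an unadjusted p below 0.05, with medians of -0.86 and -0.60. No gene of either list was at 0 in any library. Fewer cells in S phase or mitosis and less RNA per cell cannot be told apart in such bulk samples, and the part of cell cycle position in the fall of the repair genes was not tested.

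**Figure D3:**
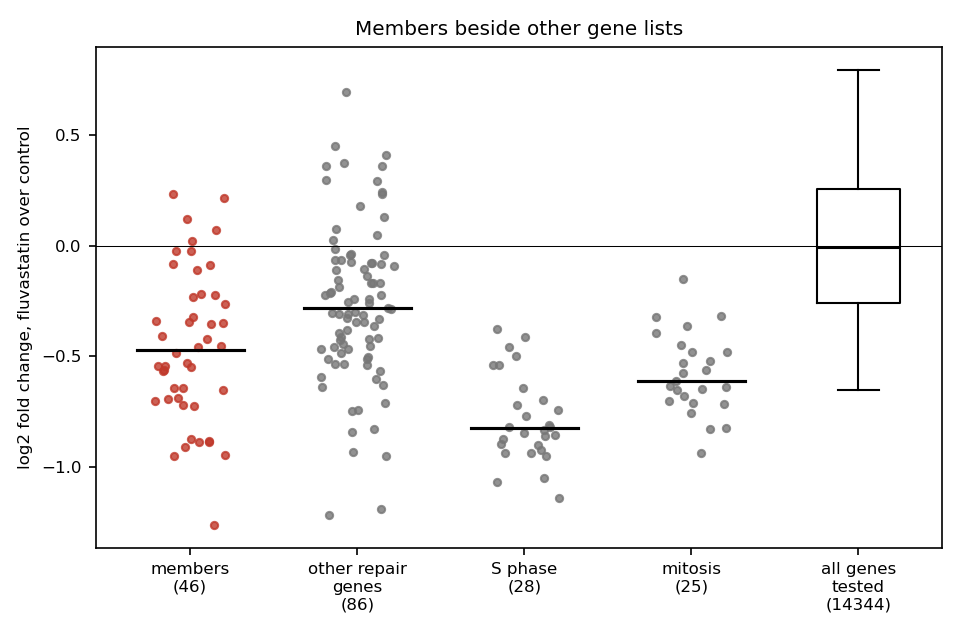
Log2 fold change, fluvastatin over control, for the 46 genes (red), 86 other repair genes, 28 S-phase genes and 25 mitotic genes (grey), 1 point a gene with a black line at the median, and a box for all 14344 genes tested (quartiles, whiskers from the lowest to the highest 5%). Medians run -0.47, -0.28, -0.82, -0.61 and -0.01 in that order.

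Promoter letters were searched because E2F factors are known to drive many S-phase and repair genes. RefSeq windows on GRCh38.p14, from 250 bases before to 50 after each annotated start, matched 40 of the 46 genes, and the table of windows used here held none for RAD54B, FANCI, NBN, WRN, XRCC5 and PRKDC. A form of the E2F site (TTTCCCGC, TTTGGCGC, TTTCGCGC or TTTGCCGC, either strand) was in a window of 11 of the 40 genes (27.5%), against 3.99% of 27305 genes with a window. Those 27305 genes, used for all letters here, outnumber the 14344 genes tested and include genes below the filter. The share among tested genes alone is not given, so the contrast is not one between expressed genes. It was in 8 of 24 matched genes that fell and in 3 of 16 that did not pass. The CHR letters TTTGAA, an element of mitotic promoters, were in 6 of 40 (15%) against 18.2% of all genes. They were in 1 of the 24 that fell and in 5 of the 16 that did not pass. The letters CCAAT, the site of the factor NF-Y, were in 21 of 40 (52.5%) against 39.7%, with 14 of the 24 and 7 of the 16. The splits between genes that fell and the others were not tested. A match is a description and does not show that a factor binds there. The stretches from 120 bases before to 30 after the start are shown 5′ to 3′ for the 4 genes that fell with the smallest adjusted p among those holding the form there, and for MSH3, which holds it and did not pass. Capitals mark the E2F letters.
XRCC2, chr7:152676112-152676261, minus strand: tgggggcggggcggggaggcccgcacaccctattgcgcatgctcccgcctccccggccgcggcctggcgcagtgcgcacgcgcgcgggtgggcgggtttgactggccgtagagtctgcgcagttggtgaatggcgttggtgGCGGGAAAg
MSH6, chr2:47783025-47783174, plus strand: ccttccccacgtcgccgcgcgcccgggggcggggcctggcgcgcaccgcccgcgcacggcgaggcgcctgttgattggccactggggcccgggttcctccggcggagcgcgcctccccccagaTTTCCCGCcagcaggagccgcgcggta
EXO1, chr1:241848084-241848233, plus strand: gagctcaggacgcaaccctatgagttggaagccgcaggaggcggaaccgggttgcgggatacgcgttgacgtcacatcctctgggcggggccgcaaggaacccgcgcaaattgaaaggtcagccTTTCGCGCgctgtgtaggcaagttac
TOPBP1, chr3:133661912-133662061, minus strand: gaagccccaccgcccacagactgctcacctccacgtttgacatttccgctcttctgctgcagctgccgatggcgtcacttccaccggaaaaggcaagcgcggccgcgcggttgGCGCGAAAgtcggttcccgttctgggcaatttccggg
MSH3, chr5:80654532-80654681, plus strand: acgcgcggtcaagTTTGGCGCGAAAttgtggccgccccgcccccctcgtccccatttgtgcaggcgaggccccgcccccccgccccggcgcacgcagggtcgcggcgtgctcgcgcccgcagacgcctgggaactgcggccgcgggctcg
In XRCC2, MSH6 and EXO1 the letters begin 22, 4 and 5 bases into the transcript, counting its first base as 1, and in TOPBP1 they begin 7 bases before it. In MSH3 a pair of overlapping matches on opposite strands begins 107 and 103 bases before the start.

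Homologous recombination genes fell in 6 of 9 cases. For this and the counts by route below, 13.6% of all genes tested fell. XRCC3 (ENSG00000126215.13; chromosome 14, 103697609 to 103715504, minus strand of GRCh38, GENCODE release 29), which with RAD51C forms a complex that stabilises recombinase filaments, was at 9.45, 9.601 and 9.28 FPKM in the fluvastatin libraries, against 23.5, 25.1 and 23.5 FPKM in the controls. The fluvastatin libraries lay within a narrow band far below the controls, and XRCC3 fell 2.55-fold (log2 fold change -1.26 ± 0.08, adjusted p = 3.30e-04; SE after ±, here and below). XRCC3 shares 5756 of its 7507 exon bases with KLC1, a kinesin light chain gene on the opposite strand, and the strand setting of the counting was not given in the sources used here. KLC1 moved the other way, at 101, 94.2 and 95.3 FPKM in the fluvastatin libraries, against 65.6, 61.8 and 58.99 FPKM in the controls (adjusted p = 0.00355, rose). XRCC2 (chromosome 7, 152644779 to 152676165, minus strand), a relative of XRCC3 that acts on the same filaments, was at 6.78, 6.28 and 6.63 FPKM in the fluvastatin libraries, against 12.1, 12.96 and 14.6 FPKM in the controls. No fluvastatin value reached the lowest control, and XRCC2 fell 2.02-fold (log2 fold change -0.91 ± 0.10, adjusted p = 0.00162).

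RAD54L, a motor protein that remodels DNA during strand exchange, had 18.8, 20.8 and 20.2 FPKM in the fluvastatin libraries, against 36.2, 35.8 and 28.8 FPKM in the controls. It fell 1.69-fold (log2 fold change -0.72 ± 0.11, adjusted p = 0.00641), with the groups apart. BRCA1 (ENSG00000012048.20; chromosome 17, 43044295 to 43170245, minus strand), the ubiquitin ligase subunit that directs broken ends to recombination, was at 23.3, 23.4 and 26.1 FPKM in the fluvastatin libraries, against 33.3, 34.2 and 40.4 FPKM in the controls. Its fluvastatin values lay below every control, a 1.48-fold fall (log2 fold change -0.55 ± 0.11, adjusted p = 0.0126). PALB2, which links BRCA1 to BRCA2, fell 1.52-fold (adjusted p = 0.0145), and RAD51C fell 1.41-fold (adjusted p = 0.0198), a call lost without fluvastatin replicate 0 or 1 or control replicate 1, at an adjusted p of 0.05005 to 0.0648. BRCA2, which loads the recombinase, averaged 8.26 ± 1.28 FPKM in fluvastatin libraries and 10.7 ± 1.09 FPKM in controls (SD, n = 3 each) and did not pass, although the groups did not overlap (log2 fold change -0.35 ± 0.13, adjusted p = 0.10002).

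BARD1, the partner of BRCA1 in its ligase, was the recombination gene with the highest mean among those that did not pass, and had 17.8, 13.4 and 15.2 FPKM in the fluvastatin libraries, against 14.6, 31.6 and 32.6 FPKM in the controls. Control replicate 0 lay among the fluvastatin libraries and the other 2 controls far above them, and the call (log2 fold change -0.65 ± 0.30, adjusted p = 0.157) turned on it, with adjusted p = 0.00794 without control replicate 0. RAD54B, a relative of RAD54L, was at 13.8, 12.4 and 10.6 FPKM in the fluvastatin libraries, against 24.1, 13.8 and 26.8 FPKM in the controls. Control replicate 1 lay within the fluvastatin range, and RAD54B (log2 fold change -0.72 ± 0.24, adjusted p = 0.0708) passed without that library (adjusted p = 0.00973). RAD54B shares 3139 of its 5313 exon bases with FSBP on the same strand, which was at 3.42, 1.72 and 2.27 FPKM in the fluvastatin libraries, against 1.56, 1.42 and 1.48 FPKM in the controls. Another line with the symbol RAD54B, whose identifier is not among those of GENCODE release 29, had 0.153, 3.502 and 1.85 FPKM in the fluvastatin libraries, against 5.78, 5.59 and 4.905 FPKM in the controls and was left out of the counts.

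Fanconi anaemia and crosslink genes fell in 7 of 10 cases, where 13.6% of all genes tested fell. In 9 of the 10 all fluvastatin libraries lay below all controls, where 22.9% of all genes tested did so. FANCA (chromosome 16, 89737549 to 89816657, minus strand), a scaffold of the core complex that ubiquitinates FANCD2 and FANCI, had 29.9, 28.3 and 24.97 FPKM in the fluvastatin libraries, against 41.97, 52.4 and 63.6 FPKM in the controls. Its controls were widely spread and still above the fluvastatin libraries, a 1.898-fold fall (log2 fold change -0.88 ± 0.16, adjusted p = 0.00991). FANCL, the ligase subunit of that complex, was at 19.5, 23.3 and 19.9 FPKM in the fluvastatin libraries, against 33.01, 29.3 and 37.5 FPKM in the controls. It fell 1.59-fold (log2 fold change -0.64 ± 0.12, adjusted p = 0.0119). FANCI, ubiquitinated together with FANCD2 and the highest of the 10 in FPKM, had 61.1, 56.3 and 79.9 FPKM in the fluvastatin libraries, against 98.4, 92.7 and 99.1 FPKM in the controls, with fluvastatin replicate 2 nearest to the controls. FANCI fell 1.47-fold (log2 fold change -0.57 ± 0.14, adjusted p = 0.0272), a call lost without fluvastatin replicate 0 or 1 or control replicate 0, 1 or 2, at an adjusted p of 0.0589 to 0.0838.

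FANCG, an adaptor in the core complex, had 31.1, 32.6 and 41.7 FPKM in the fluvastatin libraries, against 49.1, 48.4 and 54.9 FPKM in the controls. It fell 1.45-fold (log2 fold change -0.53 ± 0.13, adjusted p = 0.0272), and the call was lost without fluvastatin replicate 0 or 1 or control replicate 0, 1 or 2, at an adjusted p of 0.0555 to 0.0828. FANCD2, the other ubiquitinated partner, fell 1.605-fold, with a wide spread after fluvastatin of 19.1, 31.4 and 23.8 FPKM against 40.3, 37.9 and 40.97 FPKM in controls (adjusted p = 0.0288; lost without fluvastatin replicate 0 or 2 or control replicate 0, 1 or 2, at an adjusted p of 0.0592 to 0.0794). FANCM, the translocase that anchors the complex on DNA, fell 1.78-fold (adjusted p = 0.0319; lost without fluvastatin replicate 0, 1 or 2 or control replicate 2, at an adjusted p of 0.0567 to 0.0857). BRIP1, a helicase that binds BRCA1, fell 1.69-fold (adjusted p = 0.0426; lost without fluvastatin replicate 0 or 1 or control replicate 1 or 2, at an adjusted p of 0.0849 to 0.112). Among the remaining core complex genes FANCC was the uncalled one with the highest mean and had 9.46, 9.62 and 10.6 FPKM in the fluvastatin libraries, against 11.4, 11.8 and 12.1 FPKM in the controls. Its groups stood apart by a small margin (log2 fold change -0.23 ± 0.08, adjusted p = 0.0844). FANCE averaged 6.74 ± 0.3904 FPKM in fluvastatin libraries and 8.93 ± 1.18 FPKM in controls (SD, n = 3 each; adjusted p = 0.0563, or 0.0437 without control replicate 2), and FANCF, a gene with a low level, averaged 2.705 ± 0.409 FPKM in fluvastatin libraries and 2.76 ± 0.1302 FPKM in controls (SD, n = 3 each) and overlapped between groups.

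Mismatch repair genes fell in 4 of 5 cases. MSH6 (ENSG00000116062.14; chromosome 2, 47695530 to 47810101, plus strand), which recognises base mismatches, was at 43.8, 43.5 and 50.02 FPKM in the fluvastatin libraries, against 88.8, 78.7 and 88.05 FPKM in the controls. The highest fluvastatin value lay far below the lowest control, a 1.86-fold fall (log2 fold change -0.88 ± 0.10, adjusted p = 0.00193). MSH6 shares 1785 of 10993 exon bases with FBXO11 on the opposite strand, which had 42.8, 47.7 and 53.95 FPKM in the fluvastatin libraries, against 40.1, 35.4 and 39.9 FPKM in the controls. EXO1 (chromosome 1, 241847967 to 241895148, plus strand), the exonuclease that removes the mismatched strand, had 24.7, 18.8 and 21.8 FPKM in the fluvastatin libraries, against 46.6, 39.96 and 41.6 FPKM in the controls. It fell 1.96-fold (log2 fold change -0.95 ± 0.12, adjusted p = 0.00316) with the groups well apart. PMS1, a relative of the MutL endonuclease subunits, was at 18.2, 17.3 and 13.7 FPKM in the fluvastatin libraries, against 22.6, 27.5 and 27.98 FPKM in the controls. PMS1 fell 1.59-fold (log2 fold change -0.64 ± 0.14, adjusted p = 0.0176), a call lost without control replicate 1, at an adjusted p of 0.0547. PMS2, the nicking subunit, was at 8.305, 8.76 and 7.85 FPKM in the fluvastatin libraries, against 10.6, 10.8 and 11.1 FPKM in the controls. It fell 1.302-fold (log2 fold change -0.35 ± 0.08, adjusted p = 0.0237), lost without fluvastatin replicate 0 or 2 or control replicate 0, 1 or 2, at an adjusted p of 0.05198 to 0.0754, and 11 annotated pseudogenes named after it may share its reads. MSH3, which recognises insertion and deletion loops, had 18.8, 19.2 and 22.4 FPKM in the fluvastatin libraries, against 21.7, 20.4 and 21.9 FPKM in the controls. Its groups overlapped (log2 fold change -0.08 ± 0.10, adjusted p = 0.572), and its promoter holds the E2F letters shown above.

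Checkpoint genes fell in 3 of 5 cases. ATR, the kinase of stalled forks, was at 16.6, 14.6 and 16.7 FPKM in the fluvastatin libraries, against 22.3, 21.2 and 21.6 FPKM in the controls. Every fluvastatin library was below every control, and ATR fell 1.36-fold (log2 fold change -0.42 ± 0.09, adjusted p = 0.0161). TOPBP1, which activates ATR, had 45.8, 39.1 and 47.5 FPKM in the fluvastatin libraries, against 62.2, 58.9 and 73.4 FPKM in the controls. It fell 1.47-fold (log2 fold change -0.54 ± 0.12, adjusted p = 0.0202), a call lost without fluvastatin replicate 0 or 1, at an adjusted p of 0.0518 to 0.0595. CHEK2, the kinase downstream of ATM, was at 5.102, 6.07 and 9.17 FPKM in the fluvastatin libraries, against 11.04, 16.3 and 14.2 FPKM in the controls. Its spread was wide in both groups, and the 2.04-fold fall (log2 fold change -0.95 ± 0.22, adjusted p = 0.0217) was lost without fluvastatin replicate 0 or 1 or control replicate 1 or 2, at an adjusted p of 0.0513 to 0.06699; 4 pseudogenes are named after it. CHEK1, the kinase downstream of ATR and the uncalled checkpoint gene with the highest mean, had 54.8, 52.9 and 65.6 FPKM in the fluvastatin libraries, against 82.3, 63.01 and 72.01 FPKM in the controls. Fluvastatin replicate 2 lay above control replicate 1, and CHEK1 did not pass (log2 fold change -0.32 ± 0.13, adjusted p = 0.126). ATM, the kinase of double-strand breaks, had 43.2, 35.1 and 47.002 FPKM in the fluvastatin libraries, against 31.4, 33.6 and 42.6 FPKM in the controls. The groups overlapped, with a higher mean after fluvastatin (log2 fold change 0.22 ± 0.16, adjusted p = 0.353).

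In end processing and among the RecQ helicases 2 of 5 genes fell. BLM (chromosome 15, 90717327 to 90816165, plus strand), the helicase that dissolves recombination intermediates, was at 9.48, 8.99 and 10.7 FPKM in the fluvastatin libraries, against 18.6, 18.02 and 19.7 FPKM in the controls. The values within each group lay close together and the groups far apart, a 1.93-fold fall (log2 fold change -0.89 ± 0.09, adjusted p = 0.00164). RBBP8, which starts the resection of broken ends, had 43.6, 42.2 and 53.05 FPKM in the fluvastatin libraries, against 57.8, 59.9 and 66.8 FPKM in the controls. It fell 1.33-fold (log2 fold change -0.41 ± 0.12, adjusted p = 0.04497), lost without fluvastatin replicate 0 or 1 or control replicate 0, 1 or 2, at an adjusted p of 0.0671 to 0.128. NBN, which recruits ATM to ends and was the uncalled gene of this group with the highest mean, had 45.9, 43.1 and 52.96 FPKM in the fluvastatin libraries, against 55.6, 55.5 and 59.6 FPKM in the controls. Its groups did not overlap, and it did not pass (log2 fold change -0.27 ± 0.10, adjusted p = 0.104). RAD50, its partner that bridges ends, had 37.4, 30.6 and 35.5 FPKM in the fluvastatin libraries, against 31.7, 35.6 and 37.7 FPKM in the controls, with overlapping groups (log2 fold change -0.02 ± 0.11, adjusted p = 0.902). RAD50 shares 7784 of its 9771 exon bases with AC116366.3, a gene annotated on the same strand, whose level was not analysed here. WRN, the other RecQ helicase, averaged 6.17 ± 0.525 FPKM in fluvastatin libraries and 6.67 ± 1.21 FPKM in controls (SD, n = 3 each; adjusted p = 0.668).

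In end joining 3 of 4 genes fell by small amounts, and these 3 had the highest mean FPKM of the 46. XRCC5, the larger subunit of the Ku ring that caps broken ends, had 212, 228 and 256 FPKM in the fluvastatin libraries, against 297, 318 and 338 FPKM in the controls. XRCC6, the smaller Ku subunit, had 132, 139 and 147 FPKM in the fluvastatin libraries, against 209, 181 and 184 FPKM in the controls. Both fell by nearly the same factor, 1.37-fold for XRCC5 (log2 fold change -0.46 ± 0.11, adjusted p = 0.0216) and 1.37-fold for XRCC6 (log2 fold change -0.45 ± 0.10, adjusted p = 0.01697). The call for XRCC5 was lost without fluvastatin replicate 0 or 1 or control replicate 1 or 2, at an adjusted p of 0.0513 to 0.0704, and that for XRCC6, after which 5 pseudogenes are named, without fluvastatin replicate 0 or 1, at an adjusted p of 0.0519 to 0.0608. PRKDC, the kinase that Ku recruits, had 166, 147 and 178 FPKM in the fluvastatin libraries, against 216, 201 and 202 FPKM in the controls. Its 1.26-fold fall (log2 fold change -0.34 ± 0.10, adjusted p = 0.0477) was near the threshold and was lost whichever library was left out, at an adjusted p of 0.0551 to 0.122. LIG4, the ligase of the route, had 7.39, 8.01 and 8.52 FPKM in the fluvastatin libraries, against 8.32, 7.39 and 7.77 FPKM in the controls, with overlapping groups and a mean slightly higher after fluvastatin (log2 fold change 0.02 ± 0.09, adjusted p = 0.879).

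Among single-strand break repair genes, PARP1 fell and XRCC1 and PARP2 did not pass. PARP1 (ENSG00000143799.12; chromosome 1, 226360691 to 226408079, minus strand), the main sensor that adds ADP-ribose chains at breaks, was at 54.3, 50.4 and 54.4 FPKM in the fluvastatin libraries, against 76.9, 84.04 and 72.6 FPKM in the controls. Every fluvastatin library was below every control, a 1.47-fold fall (log2 fold change -0.54 ± 0.09, adjusted p = 0.00786). XRCC1, the scaffold of the route and its uncalled gene with the highest mean, had 23.4, 21.96 and 21.2 FPKM in the fluvastatin libraries, against 18.6, 24.3 and 18.5 FPKM in the controls. Control replicate 1 was the highest of the 6, and the groups overlapped (log2 fold change 0.12 ± 0.13, adjusted p = 0.519). PARP2 averaged 15.98 ± 2.34 FPKM in fluvastatin libraries and 18.6 ± 0.895 FPKM in controls (SD, n = 3 each; adjusted p = 0.228).

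Nucleotide excision repair genes mostly did not pass. ERCC2 (chromosome 19, 45349837 to 45370918, minus strand), a helicase of the TFIIH complex that opens DNA at lesions and at promoters, was the one that fell, at 16.05, 14.8 and 13.3 FPKM in the fluvastatin libraries, against 27.1, 29.2 and 26.9 FPKM in the controls. The groups stood well apart, a 1.88-fold fall (log2 fold change -0.87 ± 0.10, adjusted p = 0.001902). ERCC1, a subunit of the nuclease that cuts beside the lesion, had 104, 102 and 105 FPKM in the fluvastatin libraries, against 139.6, 123 and 103 FPKM in the controls. The fluvastatin values were nearly equal and the lowest control lay among them, and ERCC1 did not pass (log2 fold change -0.22 ± 0.12, adjusted p = 0.2304). ERCC1 shares 1593 of 5576 exon bases with CD3EAP on the opposite strand, which fell, at 8.12, 7.56 and 7.86 FPKM in the fluvastatin libraries, against 17.3, 20.3 and 16.5 FPKM in the controls (adjusted p = 0.00108). DDB2, a sensor of ultraviolet damage and a known p53 target, had 36.8, 42.8 and 37.2 FPKM in the fluvastatin libraries, against 44.9, 37.03 and 30.2 FPKM in the controls. Its fluvastatin values lay within the control range (log2 fold change 0.07 ± 0.15, adjusted p = 0.767). XPC, another lesion sensor, averaged 20.1 ± 0.914 FPKM in fluvastatin libraries and 21.9 ± 2.51 FPKM in controls (SD, n = 3 each; adjusted p = 0.493). XPA, which verifies the lesion, averaged 6.11 ± 0.316 FPKM in fluvastatin libraries and 5.096 ± 1.06 FPKM in controls (SD, n = 3 each; adjusted p = 0.241), and was higher past the threshold without control replicate 2 (adjusted p = 0.0375).

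In 6 pairs the log2 ratio of FPKM was compared in a two-sided exact permutation test over the libraries, which with 3 against 3 cannot give p below 0.1. Adjusted values are Benjamini-Hochberg over the 6 pairs. The log2 ratio of MSH6 to MSH3 was 1.19 ± 0.03 in fluvastatin libraries and 2.00 ± 0.04 in controls (SD, n = 3 each), lower in every fluvastatin library than in any control (exact p = 0.1, adjusted 0.3). The ratio of ATR to ATM was -1.38 ± 0.12 in fluvastatin libraries and -0.71 ± 0.25 in controls, again without overlap (exact p = 0.1, adjusted 0.3). Overlap was seen for CHEK1 to CHEK2, at 3.13 ± 0.29 in fluvastatin libraries and 2.40 ± 0.48 in controls (exact p = 0.2, adjusted 0.4). In the other 3 pairs, whose products act together, the difference between group means was smaller than the SD of the fluvastatin libraries. XRCC5 to XRCC6 was at 0.73 ± 0.06 in fluvastatin libraries and 0.74 ± 0.20 in controls (exact p = 1, adjusted 1), BRCA1 to BARD1 at 0.65 ± 0.23 in fluvastatin libraries and 0.54 ± 0.57 in controls (exact p = 0.8, adjusted 0.96), and FANCD2 to FANCI at -1.42 ± 0.50 in fluvastatin libraries and -1.28 ± 0.01 in controls (exact p = 0.7, adjusted 0.96). In that last pair fluvastatin replicate 1 lay above the other two, at -0.84 against -1.68 and -1.75. For BRCA1 to BARD1, control replicate 0 was at 1.19 and control replicates 1 and 2 were at 0.11 and 0.31. The fluvastatin libraries lay between, at 0.38, 0.80 and 0.78, so the overlap and the small difference of means in this pair rest on control replicate 0.

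**Figure D4:**
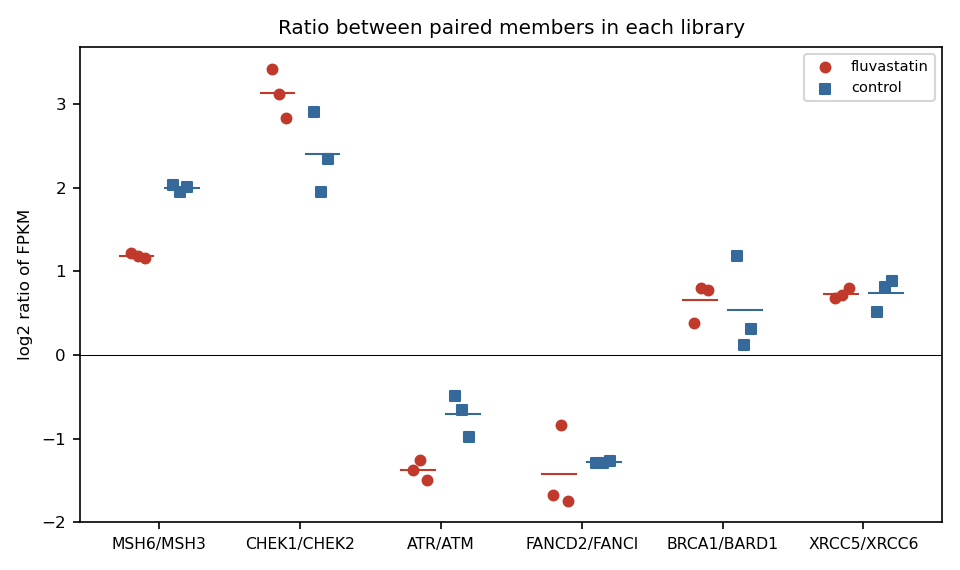
Log2 ratio of FPKM between 6 pairs of genes in each library, with red circles for fluvastatin, blue squares for controls and lines at group means. The groups separate for MSH6 to MSH3 and ATR to ATM and overlap for the other 4 pairs.

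Of 86 other repair genes tested from a list of 87, 27 fell (31.4%) and 6 rose (6.98%), with a median log2 fold change of -0.28, against 13.6% and 14.1% of all genes tested. The difference from the 46 genes was not tested. Falls numbered 14 without fluvastatin replicate 0 or 1, against 7.95% and 9.08% of all genes tested in those fits. Rises numbered 1 without fluvastatin replicate 0 and 2 without fluvastatin replicate 1 or 2 or control replicate 0 or 1. The share of all genes that rose in those fits is not given here. With depth in the model 0 fell and 0 rose, while 13 were lower and 2 higher at an unadjusted p below 0.05 in that limma fit. Of the genes named here by their small adjusted p, TONSL, H2AFX, MCM8, CDC25A, CLSPN, TIPIN, UNG, FEN1, LIG1, UBE2T and ERCC5 stayed past the threshold whichever library was left out. Break repair and fork genes fell in 10 of 28 cases and rose in 0 (at an unadjusted p below 0.05 the 86 genes held 39 lower and 8 higher in the limma fit). TONSL, which protects replication forks, fell 2.06-fold (log2 fold change -0.95 ± 0.10, adjusted p = 0.00162), H2AFX, the histone variant phosphorylated at breaks, fell 1.68-fold (log2 fold change -0.74 ± 0.10, adjusted p = 0.00325), and MCM8, a helicase subunit of recombination, fell 1.51-fold (log2 fold change -0.56 ± 0.10, adjusted p = 0.00749). Checkpoint genes fell in 7 of 16 cases and rose in 2, among them CDC25A, a phosphatase that ATR signalling removes (2.43-fold lower, adjusted p = 6.94e-04), and CLSPN and TIPIN, fork proteins that relay the signal to CHEK1 (1.81-fold and 2.01-fold lower, adjusted p = 0.00194 and 0.00436).

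Base excision and single-strand break genes fell in 7 of 17 cases, and the smallest adjusted p belonged to UNG, FEN1 and LIG1, which act also at replication forks (2.32-fold, 1.82-fold and 1.45-fold lower, adjusted p = 3.72e-04, 0.008003 and 0.0108). Crosslink and translesion genes fell in 3 of 12 cases and rose in 1, with UBE2T, the ubiquitin-conjugating enzyme of FANCL, 1.58-fold lower (adjusted p = 0.00573), the ubiquitin ligase RAD18 1.36-fold lower (adjusted p = 0.0192) and WDR48, a cofactor of the FANCD2 deubiquitinase, 1.34-fold higher (adjusted p = 0.0303). The call for RAD18 was lost without fluvastatin replicate 0, 1 or 2 or control replicate 0, at an adjusted p of 0.0501 to 0.0625, and that for WDR48 without fluvastatin replicate 0 or 2 or control replicate 0 or 1, at an adjusted p of 0.0565 to 0.0947. The 13 other nucleotide excision genes held 0 that fell and 3 that rose (23.1%), where 13.6% of all genes tested fell and 14.1% rose. ERCC5, the nuclease that cuts on the other side of the lesion, was at 24.3, 21.5 and 20.01 FPKM in the fluvastatin libraries, against 11.6, 15.1 and 12.9 FPKM in the controls. It rose 1.66-fold (log2 fold change 0.69 ± 0.12, adjusted p = 0.00918), with every fluvastatin library above every control. UVSSA, of transcription-coupled repair, rose 1.25-fold (adjusted p = 0.0348), and CETN2, a partner of XPC, rose 1.298-fold (adjusted p = 0.0455). The call for UVSSA was lost whichever library was left out, at an adjusted p of 0.0659 to 0.109, and that for CETN2 without fluvastatin replicate 0, 1 or 2 or control replicate 0 or 1, at an adjusted p of 0.0764 to 0.127.

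Exons of 27 of the 46 genes share bases with another annotated gene, 24 of them with a gene on the opposite strand. The bases shared with a single other gene ranged from 24 (FANCL with AC007250.1) to 7784 (RAD50 with AC116366.3). FANCL also shares 452 of its 2412 exon bases with VRK2 on the opposite strand. FANCA shares 2302 of 9736 with ZNF276 and RAD54L 806 of 3212 with LRRC41, both on the opposite strand. ZNF276 averaged 10.7 FPKM in fluvastatin libraries and 13.3 FPKM in controls and did not pass (limma adjusted p = 0.154), and the level of LRRC41 was not analysed here. No source used here says whether strand was used in counting. If it was not, reads from bases shared across strands could not be assigned to 1 gene. In 6 of the 46 genes bases are shared with a gene on the same strand, where strand would not separate the reads. Of the 19 genes that share none, 12 fell and 0 rose, and of the 27 that do, 15 fell. Of all genes tested, with or without shared bases, 13.6% fell and 14.1% rose, and the part of shared bases in the falls was not tested. Annotated pseudogenes are also named after PARP1 (2), FANCD2 (1) and RBBP8 (1), so reads of these genes may be split with them and their values are uncertain to that degree.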

How the data were processed

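The deposited table holds 1 FPKM value per gene and library. No unit stands in its header. The values were read as FPKM, since the authors used STAR, Cufflinks, Cuffdiff and hg38, per the submitters' processing notes. Not given in the sources used here are the versions of these tools, the gene annotation, whether strand was used and any rescaling of libraries. Gene positions and exons came from GENCODE release 29 (GRCh38), which holds 29542 of the 29790 identifiers, and promoter windows from RefSeq (GRCh38.p14). FPKM carry no counts, so relative depth was estimated from the ratios of low values between libraries, and absolute depth is unknown. A gene was tested if 3 or more of the 6 libraries reached 1 FPKM. The test was limma (version 3.58.1, under R 4.3.3; linear model with eBayes, two-sided, without a replicate block) on log2(FPKM + 1), with Benjamini-Hochberg adjustment over all genes tested and a threshold of 0.05. Folds, means and SDs were computed from untransformed FPKM. The pseudocount of 1 understates the change of low genes. The alternatives changed the pseudocount to 0.1, dropped the filter, required 5 FPKM on average, or used scaling by the trimmed mean of M-values (written out in R), quantile normalization, the trend and robust options of eBayes, depth as a covariate, a replicate block and leaving out each library; for the cell cycle lists and the other repair genes named, they were added after seeing the data. In each route values of all libraries are given for up to 4 called genes with the smallest adjusted p and the uncalled gene with the highest mean, and up to 3 other repair genes per list with the smallest adjusted p are named; values shown for other genes of the 46, the overlapping neighbours and the motifs were chosen after the data were seen. The genes, lists, pairs and tests were chosen with earlier results of these data known.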

Additional observations from a re-analysis of the deposited data

How the results depend on the processing

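None of the 27 genes that fell changed sign under the alternatives run, and 0 of them passed in every one. Depth as a covariate left 61 genes called in all, with 0 of the 46 and 0 and 0 other repair genes that fell or rose. It turned the sign of RAD54B (0.18), RAD50 (0.14), WRN (0.34), XRCC1 (-0.16), PARP2 (0.0118), DDB2 (-0.13) and XPC (0.0759), and quantile normalization that of LIG4 (-0.0284), none of which passed before or after. Leaving out 1 library at a time gave 2277 to 3483 genes called in all. In those fits 14 to 23 of the 46 fell and 0 to 1 rose (XPA). Of the other repair genes, 14 to 22 fell and 1 to 5 rose. Of all genes tested in those fits, 7.95% to 11.7% fell, and 1173 to 1842 genes rose. Over those fits the log2 fold change ran from -0.0921 to 0.0656 for FANCF, -0.0912 to 0.0588 for RAD50, -0.185 to 0.0337 for WRN, -0.0209 to 0.0701 for LIG4 and -0.0685 to 0.209 for DDB2. Without the filter 19 of the 46 fell, against 5.52% of all genes tested in that fit. The remaining scalings, pseudocount, filter and eBayes settings gave 24 to 28, against 12.6% to 18.3% of all genes tested in those fits. Whether replicate numbers pair the libraries is not stated in the labels, and the values do not settle it. Deviations of same-numbered libraries correlated at -0.002, 0.085 and 0.084, and those of libraries with unlike numbers at -0.136 to 0.058. Among the 46 genes, replicate 1 was most often the lowest of its group (21 genes in fluvastatin, 20 in control). Replicate 2 was most often the highest (24 genes in each group). The fit with a replicate block called 3154 genes, with 21 of the 46 that fell and 23 and 3 other repair genes that fell and rose. In that fit 10.4% of all genes tested fell and 1658 genes rose. For the cell cycle lists, alternatives chosen after seeing the data gave 0 S-phase and 0 mitotic genes that fell with depth as a covariate, and 20 to 24 and 17 to 21 leaving out 1 library. Of all genes tested, 0.0837% fell with depth as a covariate, and 7.95% to 11.7% fell leaving out 1 library. Absolute depth is unknown, which limits what can be said of genes at a few FPKM such as FANCF.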
